A study of Mus musculus with 2 samples.

Results

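The genes described here run and carry out cell division: 48 genes of the cell cycle and of DNA replication, out of 55536 gene rows in the tables. They were taken by name, as 14 genes that control passage through G1, 17 genes of S phase and 17 genes of G2 and mitosis (G2/M), and all 48 were found in both libraries. Bone marrow-derived macrophages are macrophages grown in culture from the precursors in mouse marrow. The RNA was the ribosome-depleted total RNA of their nucleoplasm, the soluble part of the nucleus, although 2 other labels name only the nucleus. The 1 group holds 2 biological replicates of strain C57BL/6J, both given lipid A, the part of bacterial lipopolysaccharide that TLR4 recognises, at 100 ng/ml for 50 minutes. Sex and age were not recorded, and both replicates carry 1 donor label. Replicate 1 was made from 500 ng of RNA and replicate 2 from 1 µg. An untreated library was not analysed here, so the levels describe treated cells and none of them can be read as a response, and with 1 group no test over samples exists.

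Cells pass from G1 into S phase when D cyclins with Cdk4 or Cdk6 phosphorylate the retinoblastoma protein and free the E2F factors, which switch on cyclin E and the genes of DNA synthesis. Genes of mitosis come on later, and in resting cells the DREAM complex holds many of them down through a promoter element named CHR. Marrow macrophages divide in culture while the growth factor CSF1 is present, and bacterial lipopolysaccharide is known to stop that division.

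Replicate 1 held 10395300 expected counts and replicate 2 held 20515408, all rows included. With 3 counts as the limit that a count of 0 allows, a gene without counts could have up to 0.290 counts per 1000000 (CPM) in replicate 1 and 0.146 in replicate 2. Levels are given as TPM, transcripts per 1000000, which corrects for length. They come from the tables made from alignments, and the other deposited quantification was made from the reads directly. Nuclear protein-coding genes, meaning those not encoded by mitochondrial DNA, held only 26.2% of the TPM of replicate 1 and 17.035% of that of replicate 2. The median log2 TPM ratio of such genes, replicate 2 over replicate 1, was -0.66. The SDs of single genes below include that shift. Both libraries had all 10 macrophage markers at 10 TPM or more. Their median was 183 TPM in replicate 1 and 148 in replicate 2. Of 38 markers of other cell types, 2 of 7 for neutrophils reached 1 TPM in both libraries, and none did of 8 for granulocyte-monocyte progenitors, 6 erythroid, 6 T and NK cell, 5 B cell or 6 stromal and endothelial ones. Dividing progenitors would carry cell cycle RNA of their own. Their 8 markers summed to 2.39 TPM in replicate 1 and 1.97 in replicate 2, with Elane, Ms4a3 and Cd34 at 0 counts in replicate 1 and Kit the highest at 1.54 and 0.80 TPM. In the other deposited quantification the sums were 3.40 and 0.909 TPM, but Cd34 had 74.6 and 82.8 counts and Ms4a3 10.2 and 2.53. Mpo had 30.0 and 36.6 counts there, against 1 and 9 from alignments, and Flt3 56.2 and 85.8, against 9 and 29. Elane, Prtn3 and Ctsg had the same counts in both quantifications. Isoforms not annotated protein-coding held 100% and 97.0% of the read-based TPM of Cd34, and 100% of that of Ms4a3 in each library. In that quantification 1 of the 38 markers reached 1 TPM in both libraries, the T cell gene Cd3d at 10.4 and 1.05 TPM. The endothelial gene Pecam1 had 11.65 and 0.587. The part of other cell types in the levels below was not tested. In such bulk RNA, fewer cells in a phase and less RNA per cell cannot be told apart.

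G1 control genes were the most abundant class, S phase genes came next and G2/M genes were lowest, apart from Mki67. The median G1 gene had 4.42 TPM in replicate 1 and 3.22 in replicate 2, which is 3.82 ± 0.84 (SD, n = 2). The median S phase gene had 1.93 and 1.14 TPM, 1.54 ± 0.56, and the median G2/M gene had 0.88 and 0.59 TPM, 0.735 ± 0.21. The median of all 22015 nuclear protein-coding genes was 0.33 TPM in replicate 1 and 0.24 in replicate 2. Each class median lay above it in both libraries, but 7459 of those genes had 0 counts in both. Among protein-coding genes that average 1 TPM or more, a filter not applied to the classes, the medians were 7.82 and 5.115 TPM. Every class median lay below those. Both libraries reached 1 TPM for 11 of 14 G1 genes, for 11 of 17 S phase genes and for 2 of 17 G2/M genes, 24 of 48 in all, against 38.7% of protein-coding genes. A further 11 of the 48 passed 1 TPM in 1 library only, against 1066 of the 22015 protein-coding genes. Another 13 of the 48 were below it in both libraries, against 12426 of the 22015. None of the 48 had 0 counts in both, against 7459 of the 22015.

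The low G2/M count depends on the scale. When TPM was rescaled to sum to 1000000 over nuclear protein-coding genes alone, all 17 G2/M genes, all 17 S phase genes and 13 of 14 G1 genes were at 1 or more in both libraries, against 49.2% of protein-coding genes. On CPM the counts were 13 of 14, 17 of 17 and 13 of 17, for G1, S phase and G2/M, against 45.5%. In the other deposited quantification they were 7 of 14, 5 of 17 and 2 of 17, against 28.3%. TPM there was lower in replicate 2, with the 10 macrophage markers summing to 2216 in replicate 1 and 712 in replicate 2. Mki67 had 50.1 and 10.9 there, and Cdkn1a 146 and 43.2. The median shift of all protein-coding genes was not computed for that quantification. The order of the class medians was G1, S, G2/M on each of these scales. On log2(TPM + 1), which narrows differences between low genes, the G1 median exceeded the S median by 0.87 in replicate 1 and 0.98 in replicate 2 (0.93 ± 0.08, SD, n = 2). The S median exceeded the G2/M median by 0.64 and 0.43 (0.53 ± 0.15), and the G1 median exceeded the G2/M median by 1.51 and 1.41 (1.46 ± 0.07). These SDs cover only the change between the 2 libraries and not the spread among the genes of a class. The genes of a class are not replicates, so no test was made of the classes.

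**Figure D1:**
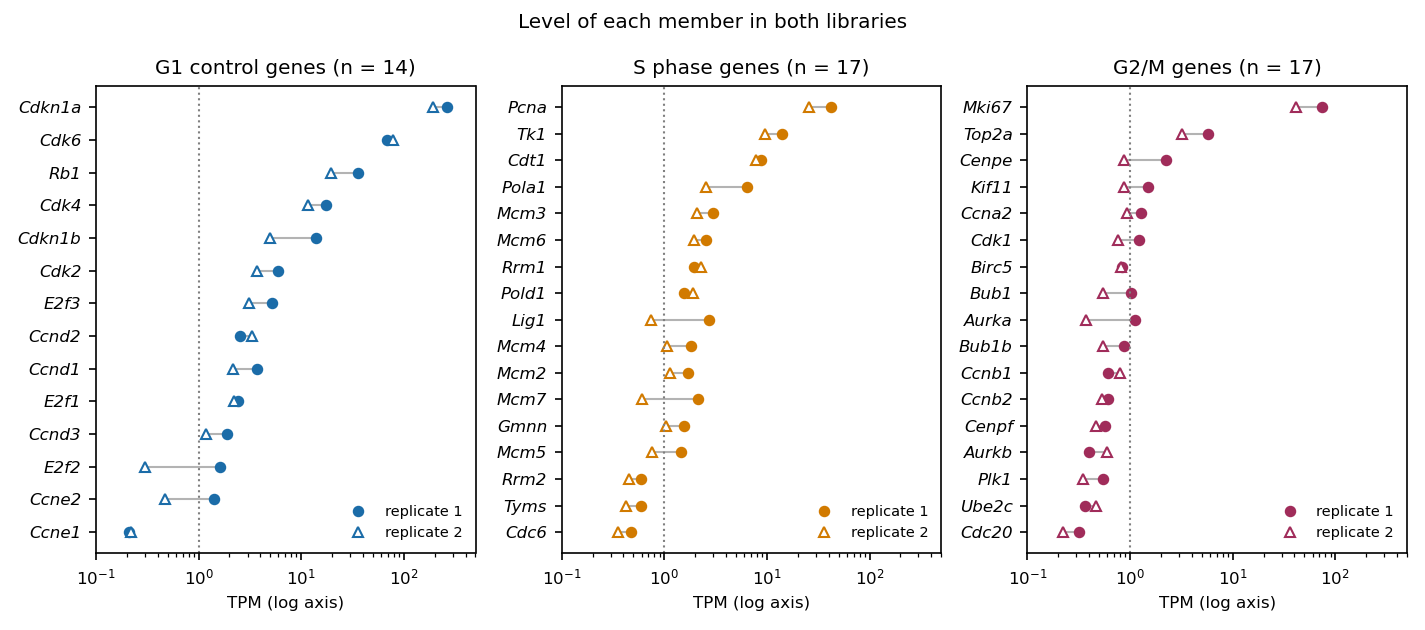
Level of each of the 48 genes in TPM on a log axis, in 3 panels for G1 control (14), S phase (17) and G2/M (17) genes, with a filled circle for replicate 1, an open triangle for replicate 2 and a dotted line at 1 TPM. Cdkn1a, Cdk6, Pcna and Mki67 lie far to the right of their classes, and most G2/M genes lie around or to the left of 1 TPM.

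In the G1 class the CDK inhibitor Cdkn1a stood highest of all 48 genes. Cdkn1a (ENSMUSG00000023067.14, chr17:29090976-29100727, plus strand, mm10) encodes p21, which blocks cyclin-dependent kinases. It had 264 TPM from 4668 expected counts in replicate 1 and 193 TPM from 9970 in replicate 2 (229 ± 50.4 TPM, SD, n = 2), and 99.4% of protein-coding genes were lower in each library. Cdkn1b, which encodes the related inhibitor p27, had 13.9 and 4.96 TPM, so Cdkn1a was 19.1 times as abundant in replicate 1 and 38.9 times in replicate 2. Cdkn1a alone made up 44.8% and 49.6% of the counts of the 14 G1 genes.

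The kinases of G1 differed widely in level. Cdk6 (ENSMUSG00000040274.11, chr5:3341485-3531008, plus strand) had 68.45 TPM in replicate 1 and 78.59 in replicate 2 (73.5 ± 7.17). Cdk4, which pairs with the same D cyclins, had 17.4 and 11.6 TPM (14.5 ± 4.12). Cdk6 was thus 3.93 times and 6.79 times as abundant as Cdk4 on TPM. On counts, which are not corrected for length, the ratios were 16.4 and 10.8. The isoforms that held the TPM of Cdk6 are given further on. Cdk2, the partner of cyclins E and A, followed with 5.92 and 3.70 TPM.

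Their cyclins were low beside them. Ccnd1 had 3.70 TPM in replicate 1 and 2.16 in replicate 2, Ccnd2 2.52 and 3.35, and Ccnd3 1.90 and 1.17. Ccnd1 was the higher of the first pair in replicate 1 and Ccnd2 in replicate 2. In the other deposited quantification Ccnd2 was higher in both libraries, at 5.22 and 1.36 TPM against 2.55 and 0.507 for Ccnd1. Cdk6 exceeded Ccnd1, which encodes cyclin D1, 18.5 times in replicate 1 and 36.4 times in replicate 2 on TPM. On counts it did so 19.2 and 20.8 times. Of the E cyclins, which act at entry into S phase, Ccne2 had 1.42 and 0.47 TPM. Ccne1 had the lowest mean TPM of the 48 genes in the alignment-based tables, at 0.21 TPM from 3 counts and 0.22 TPM from 8 counts, level with Cdc20 in replicate 2. In the other quantification it had 1.43 and 0.229 TPM. Exact Poisson 95% intervals, which cover counting error only, run from 0.619 to 8.77 counts in replicate 1 and from 3.45 to 15.8 in replicate 2.

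Rb1, the retinoblastoma gene, had 35.4 TPM in replicate 1 and 19.5 in replicate 2 (27.5 ± 11.2), and the E2F genes that its protein restrains were lower. The activator E2f3 had 5.14 and 3.10 TPM, E2f1 2.40 and 2.21, and E2f2 1.60 and 0.30. Rb1 was 14.75 times as abundant as E2f1 in replicate 1 and 8.83 times in replicate 2, and 6.31 and 6.73 times in the other quantification. E2f1 and E2f3 reached 1 TPM in each library, whereas E2f2 did not in replicate 2.

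In the S phase class Pcna, the sliding clamp that holds polymerase on DNA, was highest. Pcna (ENSMUSG00000027342.14, chr2:132249162-132253314, minus strand) had 41.7 TPM in replicate 1 and 25.5 in replicate 2 (33.6 ± 11.5, SD, n = 2), and held 29.3% and 27.2% of the counts of its class. There are 2 annotated pseudogenes that carry its symbol, so some of its reads could belong to near-identical copies. At the fork, Pola1 (catalytic subunit of the polymerase that starts new strands) had 6.38 and 2.52 TPM and Pold1 (catalytic subunit of polymerase delta) 1.55 and 1.91. Lig1, which joins lagging-strand fragments, had 2.70 and 0.75 TPM.

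The 6 subunits of the MCM helicase, which unwinds DNA at the fork as a ring of 1 copy of each, lay between 0.60 and 2.99 TPM. They ran from 1.44 TPM (Mcm5) to 2.99 (Mcm3) in replicate 1, and from 0.60 (Mcm7) to 2.09 (Mcm3) in replicate 2. Their expected counts ran from 28 to 85 in replicate 1 and from 40 to 190 in replicate 2. Mcm2 had 1.69 and 1.14 TPM, Mcm4 1.80 and 1.06, and Mcm6 2.53 and 1.96. Mcm7 had 2.12 TPM in replicate 1 and the lowest value of the ring in replicate 2. The median subunit was at 1.53 ± 0.61 TPM, and 4 of the 6 reached 1 TPM in each library.

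Among the genes that load the helicase, Cdt1 was high and its partners low. Cdt1 had 8.70 TPM in replicate 1 and 7.76 in replicate 2 (8.23 ± 0.66). Gmnn, which encodes the Cdt1 inhibitor geminin, had 1.56 and 1.03 TPM, and Cdc6, the ATPase that recruits the helicase, 0.47 and 0.35. Cdt1 was therefore 5.58 and 7.53 times as abundant as Gmnn, and 18.5 and 22.2 times as abundant as Cdc6. Gmnn rested on only 13 and 27 counts and Cdc6 on 23 and 33. The protein-coding isoform of Cdt1, of 2189 nt, had 4.17 and 3.07 TPM, and the share of its other isoforms is given further on. All the TPM of Gmnn lay in a protein-coding isoform.

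The genes of nucleotide supply were uneven. Tk1, thymidine kinase of the salvage route, had 13.9 TPM in replicate 1 and 9.58 in replicate 2. Tyms, which makes thymidylate anew, had 0.59 and 0.42 TPM. The large subunit of ribonucleotide reductase, Rrm1, had 1.93 and 2.28 TPM and the small subunit Rrm2 0.59 and 0.45, a ratio of 3.27 and 5.07, which was 11.9 and 8.44 in the other quantification. The counts of Tyms and Rrm1 differed between the quantifications, as given further on.

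In the G2/M class Mki67 stood apart from the rest. Mki67 (ENSMUSG00000031004.8, chr7:135689784-135716361, minus strand) encodes Ki-67, the antigen used to mark dividing cells, which coats mitotic chromosomes. It had 74.0 TPM from 7879 counts in replicate 1 and 41.8 TPM from 13759 counts in replicate 2 (57.9 ± 22.8 TPM, SD, n = 2), above 97.2% and 96.7% of protein-coding genes. It made up 91.7% and 91.3% of the counts of the 17 G2/M genes, and 79.4% and 77.2% of their TPM. Nearly all of it came from the full-length isoform of 10061 nt, with 96.1% and 98.3% of the gene's TPM, so the level does not rest on a short isoform. Its TPM exceeded that of Pcna 1.78 times in replicate 1 and 1.64 times in replicate 2.

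The next G2/M gene, Top2a, which encodes the topoisomerase that untangles sister chromosomes, had 5.71 TPM in replicate 1 and 3.20 in replicate 2. Mki67 was 13.0 and 13.1 times as abundant. In the other quantification of the same reads that ratio was 7.62 and 8.04. Without Mki67 the remaining 16 G2/M genes had a median TPM of 0.86 and 0.57, and Top2a was the only one of them to reach 1 TPM in each library.

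The other mitotic genes lay between 0.22 and 2.26 TPM. Cenpe, a kinetochore motor, had 2.26 TPM in replicate 1 and 0.88 in replicate 2, and Kif11, the motor that separates spindle poles, 1.48 and 0.88. Cenpf, a kinetochore protein, had 0.57 and 0.47 TPM. The mitotic engine was low throughout, with Cdk1 at 1.21 and 0.76 TPM, and its cyclins Ccna2 at 1.27 and 0.94, Ccnb1 at 0.61 and 0.79, and Ccnb2 at 0.61 and 0.53. The spindle checkpoint genes Bub1 and Bub1b had 1.02 and 0.88 TPM in replicate 1, and each had 0.55 in replicate 2.

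Mitotic kinases and the exit machinery were lowest. Aurka had 1.11 TPM in replicate 1 and 0.37 in replicate 2, Plk1 0.54 and 0.35, and Aurkb 0.40 and 0.59. Birc5, the passenger protein survivin, had 0.83 and 0.81 TPM. Ube2c, the ubiquitin-conjugating enzyme of the anaphase-promoting complex, had 0.36 TPM from 3 counts and 0.47 from 14. Cdc20, the activator of that complex, had the lowest mean TPM of the class, at 0.32 TPM from 4 counts and 0.22 from 12, close to the median protein-coding gene, with 49.8% and 49.5% of such genes below it. In the other quantification Plk1 was lower than Cdc20, at 0.285 and 0.107 TPM against 0.360 and 0.110. The 95% Poisson interval of Cdc20 runs from 1.09 to 10.2 counts in replicate 1 and from 6.20 to 20.96 in replicate 2. Mki67 exceeded Plk1 137 times in replicate 1 and 119 times in replicate 2, and Plk1 rested on only 12 and 24 counts.

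Promoter sequence, which played no part in choosing the genes, differed between the classes. RefSeq promoters (build GRCm38.p6, 250 bases before to 50 after the start site) were found for 40 of the 48 genes, as 47 promoters, and were set beside all 32851 promoters of the same length. Letters were searched on both strands. The E2F motif was TTCCCGC, and its other forms were TTGGCGC, the form TTCGCGC and the form TTGCCGC. The CHR motif was TTTGAA, with TTCGAA as its other form. The box bound by NF-Y was CCAAT. The form TTCGAA reads the same on both strands, and a CCAAT box on the reverse strand can share its TTGG with TTGGCGC. The promoters of Mki67, the highest G2/M gene, Cdc20, the lowest, and Pcna, the highest S phase gene, are shown because they span the levels above. The 250 bases before each start site are given on the gene's strand, chr7:135716380-135716629, chr4:118437344-118437593 and chr2:132253181-132253430, all on the minus strand, with matches of any of the 3 kinds in capitals:
Mki67: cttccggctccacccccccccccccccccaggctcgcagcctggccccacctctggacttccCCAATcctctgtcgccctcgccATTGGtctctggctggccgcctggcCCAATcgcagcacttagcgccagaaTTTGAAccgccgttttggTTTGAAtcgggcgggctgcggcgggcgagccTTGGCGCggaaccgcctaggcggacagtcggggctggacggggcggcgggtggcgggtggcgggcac
Cdc20: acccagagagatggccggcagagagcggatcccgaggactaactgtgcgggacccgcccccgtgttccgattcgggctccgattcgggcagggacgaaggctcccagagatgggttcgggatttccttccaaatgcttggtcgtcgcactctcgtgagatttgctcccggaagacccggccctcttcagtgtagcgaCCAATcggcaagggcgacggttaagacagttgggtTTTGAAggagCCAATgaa
Pcna: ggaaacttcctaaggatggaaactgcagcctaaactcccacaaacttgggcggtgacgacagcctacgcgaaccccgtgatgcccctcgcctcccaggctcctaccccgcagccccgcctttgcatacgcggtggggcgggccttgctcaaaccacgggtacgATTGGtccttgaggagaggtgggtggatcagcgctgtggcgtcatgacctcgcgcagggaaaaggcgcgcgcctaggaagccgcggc

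Mki67 holds TTTGAA at -116 and -98 from the start site, TTGGCGC at -67, and CCAAT boxes at -188, -166 (reverse strand) and -141. Cdc20 holds TTTGAA at -18 with CCAAT boxes at -53 and -8, and no E2F match in the window. Pcna holds 1 reverse CCAAT box at -87 and neither of the other motifs. The high and the low G2/M gene thus shared CHR and CCAAT letters.

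Over the classes, a CHR match was in 12 of 15 G2/M promoters (80%), 2 of 18 S phase promoters (11.1%) and 2 of 14 G1 promoters (14.3%), against 19.2% of all promoters. A CCAAT box was in 14 of 15 (93.3%), 10 of 18 (55.6%) and 6 of 14 (42.9%), against 37.4%. E2F letters went the other way, in 13 of 18 S phase promoters (72.2%), 3 of 15 G2/M promoters (20%) and 3 of 14 G1 promoters (21.4%), against 9.57%. All 12 G2/M promoters with CHR also held CCAAT, and Cdk1 and Mki67 held E2F letters as well. Birc5 held none of the 3, and Ccnb1 and Cenpe lacked CHR. These matches describe letters in a window, were not matched for base composition and say nothing about binding. Several genes have more than 1 promoter in the table, such as Lig1 and Mcm7.

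Further genes of the same pathways, listed by name, gave a less steep picture for mitosis. Each library reached 1 TPM for 17 of 25 further G1 genes, for 22 of 42 S phase genes and for 19 of 42 G2/M genes, 58 of 109 in all, against the 38.7% of protein-coding genes. On the rescaled TPM it was 98 of 109, against 49.2%. In the other quantification it was 34 of 109, against 28.3%. Their medians were 3.99 TPM in replicate 1 and 2.54 in replicate 2 for G1, 1.57 and 1.08 for S phase, and 1.48 and 0.94 for G2/M, so the S phase and G2/M medians differed by less than either one did between the replicates.

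Of the further G1 genes, the cyclin G2 gene Ccng2 was highest at 20.3 and 12.2 TPM. The repressor E2f8 followed at 18.2 and 11.9 and the retinoblastoma relative Rbl2 at 8.98 and 4.90. The Cdk4 and Cdk6 inhibitor genes Cdkn2a, at 0 counts in both libraries, and Cdkn2b, at 0 and 8 counts, were lowest.

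Of the S phase genes, Rfc2 of the clamp loader had 29.6 and 17.2 TPM, Orc4 of the origin recognition complex 25.0 and 10.9, and Pold3 of polymerase delta 14.7 and 11.4. The lowest was Ung, which removes uracil from DNA, with 0.03 and 0.08 TPM.

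Of the G2/M genes, Cenpa, the histone of centromeres, had 40.7 and 15.7 TPM, the checkpoint gene Mad2l1 19.9 and 10.8, and Tmpo, which encodes lamina-associated polypeptides and acts outside mitosis too, 16.9 and 11.3. The phosphatase gene Cdc25c had 0.18 and 0.21 TPM and Hmmr, a spindle protein, 0.29 and 0.21. Cenpa and Mad2l1 were thus between Mki67 and Top2a in each library.

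**Figure D2:**
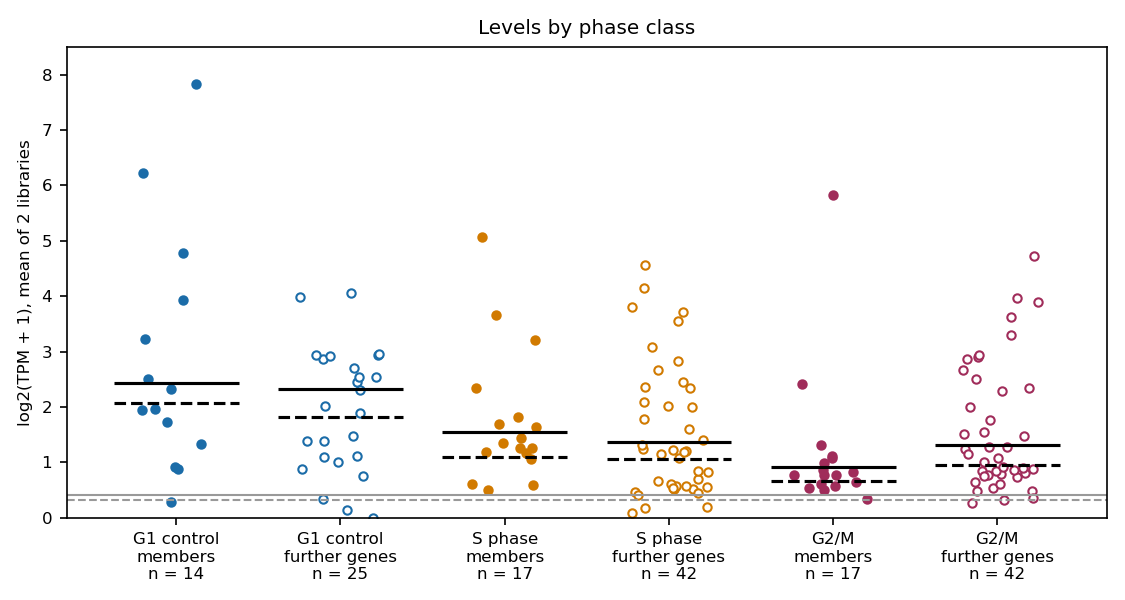
Mean log2(TPM + 1) over both libraries for each gene, for the 48 genes (filled) and the 109 further genes (open) of each phase, with black lines at the class medians of replicate 1 (solid) and replicate 2 (dashed) and grey lines at those of all protein-coding genes. The filled classes step down from G1 to S to G2/M, the open S phase and G2/M genes have nearly equal medians, and every black line lies above the grey ones.

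Most of these genes, like most protein-coding genes, stayed within 2-fold between the replicates beyond the common shift. With that shift removed, 3 of the 30 genes that average 1 TPM or more differed more than 2-fold between the libraries, against 6.56% of protein-coding genes at that level. On the log2 scale, Ccnd2 was higher in replicate 2 by 1.07, and Mcm7 (-1.16) and Lig1 (-1.19) were lower. On CPM none of the 30 passed 2-fold, against 4.47% of protein-coding genes. The median shift of the classes relative to all protein-coding genes was -0.02 for 11 G1 genes, 0.08 for 14 S phase genes and -0.16 for 5 G2/M genes.

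Cdk6 and Aurkb show where the scales part. Cdk6 was higher in replicate 2 on TPM, yet on CPM it had 269 in replicate 1 and 249 in replicate 2. A protein-coding isoform of 697 nt took 35.3% of its TPM in replicate 1 and 63.3% in replicate 2, while the 11525-nt isoform, with 2173 and 3456 counts, took 25.0% and 11.4%. Aurkb had 4 counts in replicate 1, with a 95% Poisson interval of 1.09 to 10.2, and 33 in replicate 2, 22.7 to 46.3, at 0.387 and 1.61 CPM. Its TPM values, 0.40 and 0.59, lay closer together.

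**Figure D3:**
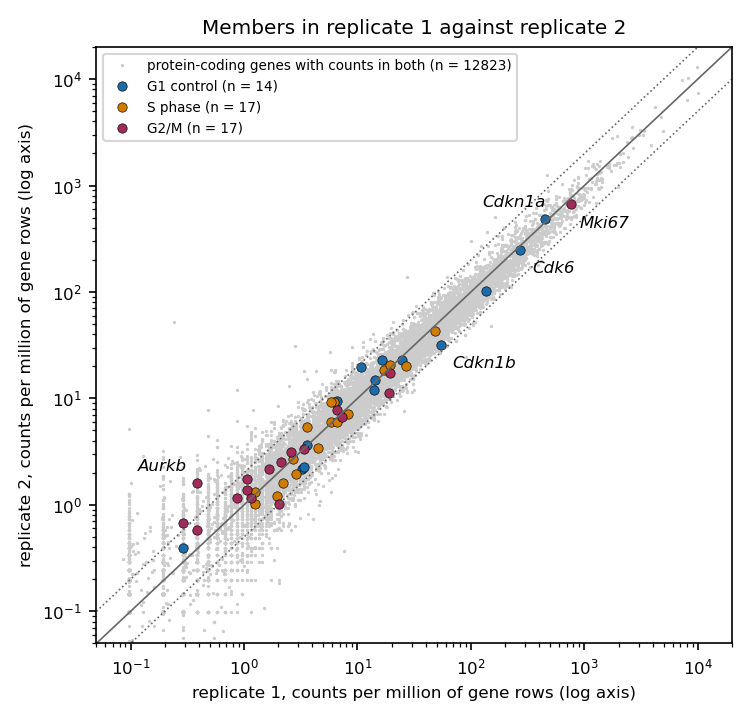
CPM in replicate 1 against replicate 2 on log axes, with grey dots for protein-coding genes with counts in both libraries and coloured circles for the 48 genes, a solid line at equality and dotted lines at 2-fold. Cdkn1a, Cdk6 and Mki67 lie on the line at the upper end, and Aurkb, with 4 and 33 counts, lies above the upper dotted line.

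Part of the RNA was assigned to isoforms that the annotation does not class as protein-coding, such as ones that retain an intron. Such noncoding isoforms exist for 26 of those 30 genes, and their median share of the gene's TPM was 25.2% in replicate 1 and 31.4% in replicate 2, beside 31.0% and 33.7% for 7683 protein-coding genes. The share was at least 50% in both libraries for 5 of the 26, against 21% of those protein-coding genes. By class, the median share was 13.7% and 34.3% for 9 G1 genes, 38.9% and 38.8% for 13 S phase genes, and 9.85% and 15.9% for 4 G2/M genes.

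Tk1 led with 86.8% of its TPM in retained-intron isoforms in replicate 1 and 79.6% in replicate 2. Its protein-coding isoform of 1440 nt had only 1.83 and 1.96 TPM, so the high level of the gene came mainly from the others. Cdk4 had 73.6%, the next highest, in replicate 1 and 54.0%, the lowest of the 5, in replicate 2, and its isoform of 2053 nt had 2.27 and 3.61 TPM. The remaining ones were Cdt1 (52.0% and 60.4%), Ccnd2 (54.0% and 65.1%) and Pold1 (54.2% and 58.1%). Pcna had 36.6% and 44.0%, whereas Cdkn1a had 0.182% and 0.394% in such isoforms, and Mki67 has none annotated. In the other quantification the median share was 38.8% and 42.1%, beside 46.2% and 44.6% for protein-coding genes.

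**Figure D4:**
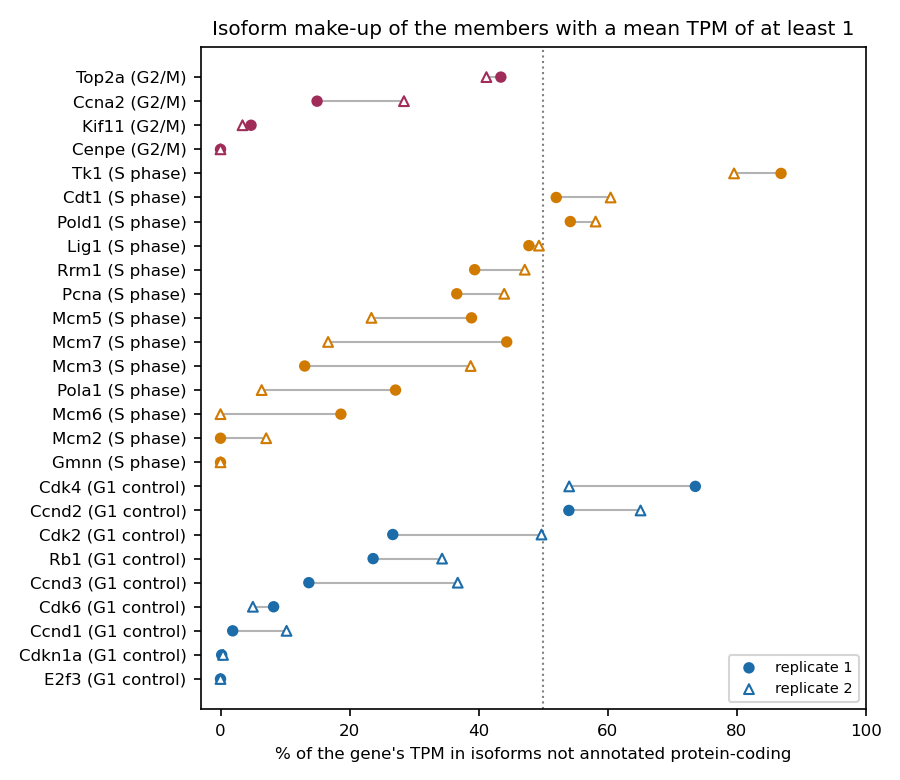
Percent of each gene's TPM in noncoding isoforms, for the 26 genes that have them and average 1 TPM or more, with a circle for replicate 1, a triangle for replicate 2 and a dotted line at 50%. Tk1, Cdt1, Pold1, Cdk4 and Ccnd2 have both symbols at or beyond the line, and no G2/M gene does.

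The 2 deposited quantifications gave different counts for some members. Estimated counts made from the reads exceeded expected counts made from alignments by a median factor of 1.89 in replicate 1 and 1.36 in replicate 2. Relative to that factor, 5 of 48 genes were more than 2 times higher in both libraries, against 11.2% of protein-coding genes with counts throughout. The genes were Tyms (10.8 and 15.1 times), Birc5 (9.44 and 5.65), Ube2c (5.85 and 4.25), Cdk1 (4.17 and 3.35) and Ccne1 (3.69 and 2.38), all with a mean below 1 TPM.

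Tyms had 20 and 25 expected counts but 409 and 513 estimated counts. Noncoding isoforms took a share of its TPM that was 100% and 90.5% in the first and 13.1% and 15.5% in the second. Birc5 had 17 and 45 expected counts against 304 and 347 estimated ones. In the read-based tables Tyms had 4.53 and 1.02 TPM, Birc5 3.24 and 0.654, and Cdk1 4.49 and 0.988. These 3 stood higher in replicate 1 there than in the alignment-based tables. In replicate 2 Tyms and Cdk1 were also higher there, against 0.42 and 0.76 TPM from alignments, and Birc5 was lower, against 0.81. Rrm1 (3.34 and 1.83 times) and E2f1 (2.54 and 1.29 times) passed the factor in replicate 1 alone.

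Exons of 16 of the 48 genes overlap a gene on the opposite strand. The share of all protein-coding genes with such an overlap was not computed, so whether 16 is many cannot be judged. The strand setting is not given in the sources used here, so whether the quantifications separated the strands is unknown. Of the 5 genes above only Ube2c is among the 16, overlapping Tnnc2 over 22.8% of its exon length. Ccnd1 overlaps LTO1, Cdk4 overlaps Tspan31, and Rb1 overlaps Rcbtb2 and Lpar6. Mki67 and Pcna have no such overlap. Tyms, Ccnd3, Ccnb1 and Ccnb2 each have 1 pseudogene with their symbol. The part of overlaps and copies in the difference between the quantifications was not tested.

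**Figure D5:**
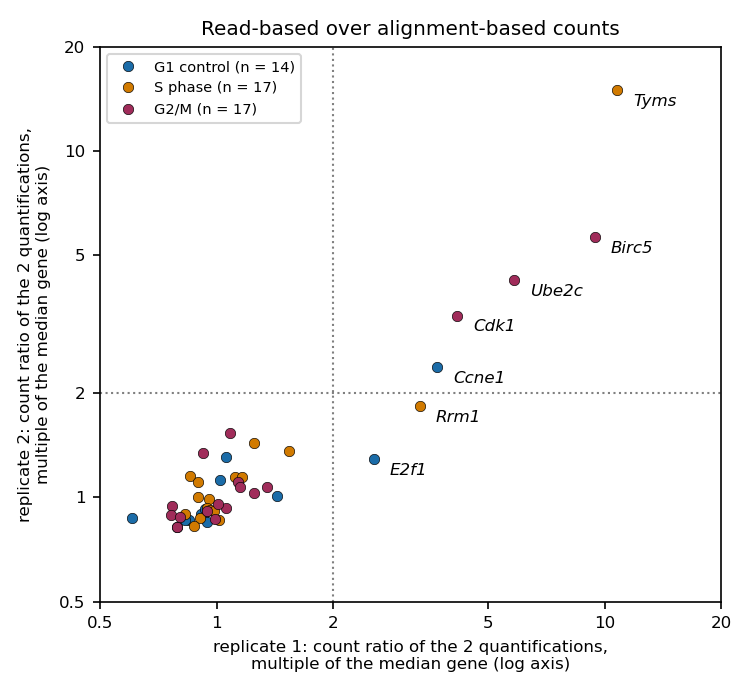
Ratio of read-based to alignment-based counts for each of the 48 genes, as a multiple of the median protein-coding gene, in replicate 1 against replicate 2 on log axes, with dotted lines at 2. Most genes lie near 1 in both, and Tyms, Birc5, Ube2c, Cdk1 and Ccne1 lie above 2 in both.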

How the data were processed

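RNA-seq libraries of the nucleoplasmic fraction were analysed from the deposited tables. Per the file headers, the authors' gene and transcript tables list expected counts with TPM in an RSEM-type layout, and each library also has a kallisto-type transcript table of estimated counts with TPM. The authors' readme files name mm10 and annotation M21, and state that the former were made from alignments to transcripts and the latter from reads. No program, version, trimming, strand setting or filter is given in the sources used here.

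Symbols and classes came from GENCODE M21. The 97 spike-in rows (0.504% and 0.0967% of expected counts in replicates 1 and 2) and 26248 rows with numeric identifiers (0.000106% and 0.000102%) carry no gene name and stayed out of CPM. The 48 genes, the further lists and the marker lists for macrophages, progenitors, neutrophils, erythroid, T and NK, B, and stromal and endothelial cells were chosen with earlier results of these data known. All 48 genes could be named, and of each further list the 3 highest and 2 lowest by mean TPM, of which 1 is not reported here. Values are mean ± SD over 2 libraries. With 1 group no test over samples was possible and no p-value was computed. The libraries were not copies of each other (chi-square 90.1 per degree of freedom over 15667 genes). The ratio computation was tested on simulated data with 200 changed genes. Python 3.11.15, numpy 2.4.6, pandas 2.3.3 and scipy 1.17.1 were used. Alternatives concerned scale, quantification, thresholds, class assignment, pseudocount and single replicates.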

Additional observations from a re-analysis of the deposited data

How the results depend on the processing

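The order of the class medians, G1 above S above G2/M, held under every alternative run, while the counts and sizes moved. At 1 or more in both libraries, S phase genes numbered 17 on CPM, 17 on rescaled TPM, 17 with at least 10 expected counts, and 5 in the other quantification or at 2 TPM. G2/M genes numbered 13, 17 and 13 on those first 3 scales and 11 at 0.5 TPM, and in single libraries 2 to 8 (8 in replicate 1 alone). G1 genes fell to 7 in the other quantification. Further pathway genes numbered 98 of 109 on rescaled TPM and 34 in the other quantification, against 49.2% and 28.3% of protein-coding genes. By counts they numbered 88, while 11648 of 22015 protein-coding genes had fewer than 10 counts in at least 1 library. The share of protein-coding genes at 0.5 TPM, at 2 TPM and at 1 TPM in single libraries was not computed. The single-library counts therefore have no share to be read against. On CPM, rescaled TPM, the other quantification and a pseudocount of 0.1, the log2 difference G1 minus S was 1.27, 1.23, 0.71 and 1.28, S minus G2/M was 1.14, 0.86, 0.28 and 0.95, and G1 minus G2/M was 2.42, 2.09, 1.00 and 2.23. Counting Ccne1, Ccne2, E2f1 and E2f2 with S gave 1.61 for G1 minus S and 2.08 for G1 minus G2/M. Keeping only genes that average 1 TPM or more gave 0.31 for S minus G2/M and 1.18 for G1 minus G2/M. Genes more than 2-fold apart between replicates numbered 0 of 30 on CPM, 1 of 30 in the other quantification and 7 of 48 without a filter, against 4.47%, 4.89% and 14.7% of protein-coding genes. Markers of other cell types at 1 TPM or more numbered 1 in the other quantification. The median share of TPM in noncoding isoforms was 40.4% in the other quantification. The causes of these shifts were not tested. The alternatives for further pathway genes, markers and promoters were chosen after seeing the data. Counting 1 promoter per gene moved no motif share beyond its interval, but this could show little. The G2/M shares could not change, with 15 promoters for 15 genes, and the G1 and S phase shares came from part of the same promoters. Depth limits the genes with few counts, such as Ccne1, Cdc20, Ube2c and Aurkb. No paired analysis was possible because there is only 1 group.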
